A study of Mus musculus with 41 samples.

Results

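The 10 genes described here are in wide use as markers of mammary stem and progenitor cells, and were followed through 41 Trp53-null mouse mammary tumors: Cd44, Cd24a, Prom1, Kit, Aldh1a1, Aldh1a3, Lgr5, Procr, Itga6 and Itgb3. They were taken by name and not by any measured value. All 10 passed the filter on dim probes and were tested among 20913 genes, of 30175 gene names on the array. The question put to them was whether their RNA levels differed with tumor histology, tumor latency and diet.

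Mammary epithelium holds an inner luminal layer that makes milk and an outer basal layer that contracts, and single marker genes were used in transplantation, sorting or lineage tracing to enrich cells able to rebuild 1 or both layers. Cd24a, Itga6 and Itgb3 encode surface proteins used together in sorting: the glycoprotein CD24, the laminin-binding integrin α6 and the integrin β3. Kit, the receptor tyrosine kinase for stem cell factor, and Prom1, a membrane protein of cell protrusions, mark luminal progenitors and luminal cells. Aldh1a1 and Aldh1a3 make retinoic acid from retinal and give the ALDEFLUOR-type activity by which progenitors and tumor-initiating cells are sorted. Lgr5 binds R-spondins and raises Wnt signalling. Procr, the endothelial protein C receptor, marks a basal population with stem cell activity and is also a gene of blood vessel endothelium. Cd44 is the receptor for hyaluronan and is made in several splice forms.

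The tumors arose from Trp53-null BALB/c mammary epithelium placed in the cleared fat pads of wild-type BALB/c female mice, so the stroma of every tumor was that of a wild-type host. The hosts ate a low fat diet throughout (LFD), a high animal fat diet throughout (HFD), the high fat diet in puberty and the low fat diet as adults (HFD-LFD), or the reverse order (LFD-HFD). Of the 41 tumors, 29 were epithelial (8 LFD, 8 HFD, 7 HFD-LFD and 6 LFD-HFD) and 12 were spindle cell tumors (3 in each regimen). The labels further class each tumor as early or late, which gave 14 early and 15 late epithelial tumors and 3 early and 9 late spindle cell tumors. Each tumor was hybridised once to a 2-colour Agilent array against a reference RNA pooled from 11 mouse cell lines, and every value below is log2 of the tumor signal over the reference signal for 1 probe. A level can therefore be set against the same gene's level in another tumor, but not against another gene's level. All groups share the Trp53-null genotype of the epithelium and the reference, and no normal mammary gland was analysed here. Ducts of several donor mice were used, and the labels do not tie a tumor to its donor.

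The array carried 4 probes for Cd44, which the files assign to 1 transcript but which lie in constant and in variably spliced parts of it. The 3 sequences below are shown because the sign of the difference between histologies varied among them, although none of the 3 differences was called. They lie on the minus strand of chromosome 2 (mm9). The constant-region probe ends the coding sequence that the standard and the longer forms share, and the capitals mark its stop codon, after which its remaining bases are not shown. Both variable-region probes match coding sequence from the stretch of Cd44 exons that the short standard form skips.
Cd44 constant-region probe: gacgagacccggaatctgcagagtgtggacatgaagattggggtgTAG
Cd44 variable-region probe 1: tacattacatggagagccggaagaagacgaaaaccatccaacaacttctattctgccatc
Cd44 variable-region probe 2: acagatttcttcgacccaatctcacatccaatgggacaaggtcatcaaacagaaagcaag
The constant-region probe lies at chr2:102654278-102654337, variable-region probe 1 at chr2:102672645-102672704 and variable-region probe 2 at chr2:102677971-102678030. A further probe, at chr2:102651398-102651457, lies downstream of all 3 in the direction of transcription.

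The labels place the tumor in Cy5, whereas the methods of the study name Cy5 for the reference, so the sign of each value was checked on the arrays. Probes of Y-linked genes, which a female tumor lacks, were brighter in Cy3 on 41 of 41 arrays (median log2 ratio from -8.08 to -3.63), and the tumor was taken as Cy5. The labels say nothing of whether tumors that share a mouse number came from 1 animal, so p-values measure the spread between these tumors. Between 52.4% and 94.9% of probes stood well above background in the epithelial arrays (median 73.8%) and between 59.1% and 72.7% in the spindle cell arrays (median 65.9%). The probes of 9 members did so in all 41 tumors, and that of Lgr5 in 21 of 29 epithelial and 7 of 12 spindle cell tumors, so its lowest values are uncertain. No epithelial tumor shared its scan session, scanner or Feature Extraction version with any of the 12 spindle cell tumors, and histology cannot be told apart from these. The Trp53 probe ranged from -2.25 to 3.74 in epithelial tumors and from 0.08 to 1.95 in spindle cell tumors. The exons removed from the null allele are not given in the sources used here, so this probe does not check the genotype.

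Among epithelial tumors, the members differed greatly in how far they spread. Lgr5 ran from -6.71 to 2.16 with a median of -2.03, and its SD of 1.68 was larger than that of 98.4% of all tested genes, on a probe well above background in 21 of the 29. That spread depended on the background correction, since with normexp and loess the SE of the Lgr5 difference between early and late epithelial tumors was 0.27 in place of 0.58, and that of Aldh1a1 was 0.50 in place of 0.53. The retinaldehyde dehydrogenases came next, with Aldh1a1 from -4.45 to 1.61 (SD 1.55, above 97.6% of genes) and Aldh1a3 from -2.33 to 3.77 (SD 1.52, above 97.3% of genes). Prom1 had an SD of 1.15 and Kit one of 0.96, against a median SD of 0.555 over all genes. Cd24a and Itga6 stood near that median, with SDs of 0.58 and 0.53. Itga6 thus ran from -0.00 to 2.42, whereas the highest epithelial tumor was 66.6-fold above the lowest in Aldh1a1 and 68.8-fold above it in Aldh1a3.

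Spindle cell tumors spread as widely or more so for most of the same genes. Aldh1a3 (SD 2.0), Aldh1a1 (1.91), Prom1 (1.77), Kit (1.52) and Lgr5 (1.51) each exceeded the SD of at least 94.6% of genes in the 12 tumors, where the median SD was 0.511. Procr, above 67.0% of genes in epithelial tumors (SD 0.70), was above 90.6% in spindle cell tumors (SD 1.24). These are descriptions of the tumors measured, and the difference in spread between the histologies was not tested.

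**Figure D1:**
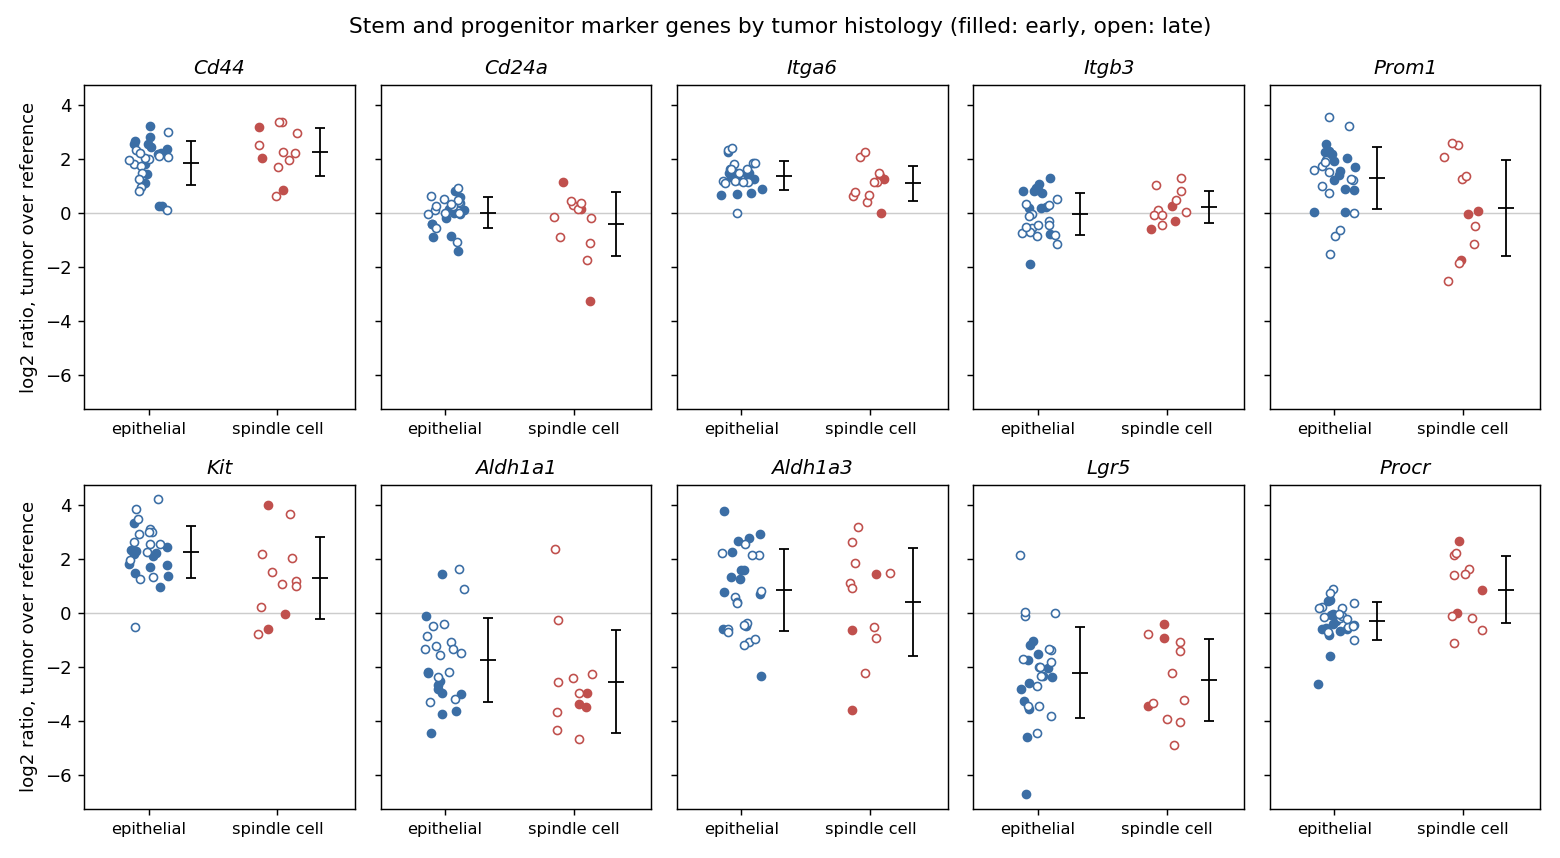
Level of each of the 10 genes in every tumor, as log2 of tumor over reference signal, in epithelial (n = 29) and spindle cell (n = 12) tumors. Filled points are early and open points late tumors, and the bar beside them is the mean with its SD. The groups overlap for every gene. Procr, with a spindle cell mean of 0.86 and an epithelial mean of -0.30, is the one gene with a limma adjusted p under 0.05.

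Procr, read by a probe at chr2:155580945-155581004 on the plus strand (mm9), was the one member that passed the test between the histologies. In epithelial tumors its lowest, median and highest values were -2.62, -0.23 and 0.89, with a mean of -0.30 ± 0.70 (SD, n = 29). In spindle cell tumors they were -1.11, 1.12 and 2.64, with a mean of 0.86 ± 1.24 (SD, n = 12). The ranges overlapped, since 5 of the 12 spindle cell tumors had values of 0.01 or less, but the other 7 were at 0.85 or above. The mean was higher by 1.15 on the log2 scale (SE 0.30), which is 2.23-fold, with a Benjamini-Hochberg adjusted p of 0.00489 over all genes by limma. This was 1 called member of 10, where 20.2% of all tested genes were called (7.92% higher and 12.2% lower in spindle cell tumors), so the number of members called was not above the background. At an unadjusted p under 0.05 there were 3 of 10 members and 33.3% of all genes. The Procr call held when any 1 spindle cell tumor was left out, with differences from 0.99 to 1.33 and limma adjusted p from 0.000981 to 0.0157. It was lost among late tumors alone, where the difference was 0.81 (SE 0.35, limma adjusted p = 0.131).

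Kit (probe at chr5:76052394-76052453, plus strand) and Prom1 (probe at chr5:44384861-44384920, minus strand) had lower means in spindle cell tumors without passing the threshold. Kit had a lowest, median and highest value of -0.53, 2.27 and 4.2 in epithelial and of -0.79, 1.12 and 3.98 in spindle cell tumors. The difference was -0.99 (SE 0.38, limma adjusted p = 0.0630). Single tumors are named as in the titles of the samples. Spindle cell tumor M86R, of the LFD-HFD regimen, held the highest Kit of its histology, and without it the Kit difference was -1.23 with a limma adjusted p of 0.0171. Without M128L it was -1.20 (limma adjusted p = 0.0197). Prom1 had -1.51, 1.52 and 3.55 in epithelial tumors and -2.50, 0.01 and 2.59 in spindle cell tumors, a difference of -1.12 (SE 0.45, limma adjusted p = 0.0720). The Prom1 call was likewise gained when M128L, M18L or M54R was left out, with differences of -1.29, -1.33 and -1.34 and limma adjusted p of 0.0385, 0.0326 and 0.0328. Both genes were thus close to the threshold, and single tumors decided the side on which they fell.

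In mm9 the probes of Itga6 and Itgb3 lie at chr2:71694756-71694815 and chr11:104531672-104531731, and those of Cd24a, Aldh1a1, Aldh1a3 and Lgr5 at chr10:43303706-43303765, chr19:20717764-20717823, chr7:73535785-73535844 and chr10:114887403-114887462. The remaining 7 members did not pass the test between histologies, with differences from -0.81 to 0.40 and limma adjusted p from 0.306 to 0.772. The integrins had means of 1.39 ± 0.53 (SD, n = 27) and 1.1 ± 0.66 (SD, n = 12) for Itga6, and of -0.03 ± 0.78 (SD, n = 27) and 0.22 ± 0.60 (SD, n = 12) for Itgb3. Among late tumors alone Itgb3 was higher in spindle cell tumors by 0.72 with a limma adjusted p of 0.0351. Cd24a averaged 0.01 ± 0.58 (SD, n = 27) in epithelial and -0.40 ± 1.19 (SD, n = 12) in spindle cell tumors, where its lowest value, -3.24 in M129L, was below that of every epithelial tumor measured (-1.40 and above). Aldh1a1 averaged -1.74 ± 1.55 (SD, n = 27) and -2.55 ± 1.91 (SD, n = 12), and Aldh1a3 averaged 0.83 ± 1.52 (SD, n = 29) and 0.39 ± 2.0 (SD, n = 12). The median difference over the 10 members was -0.35, and over all genes it was -0.07. Among the spindle cell arrays, M32L had the narrowest ratios (interquartile range over genes 1.01, against 1.39 to 1.76 in the others), M76R had the smallest share of probes well above background (59.1%), and M86R had been set apart with them in an earlier analysis of these data. Without these 3 arrays 4 of the 10 members were called by limma, as were 4629 of 20912 genes. The 4 were Procr, Kit at -1.23 (adjusted p = 0.0273), Aldh1a1 at -1.50 (adjusted p = 0.0362) and Cd44 at 0.77 (adjusted p = 0.0485). Of the 12 spindle cell tumors, M86R held the highest Kit, and M76R the highest Aldh1a1 and the lowest Cd44, so these calls rest on which tumors were left out.

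**Figure D2:**
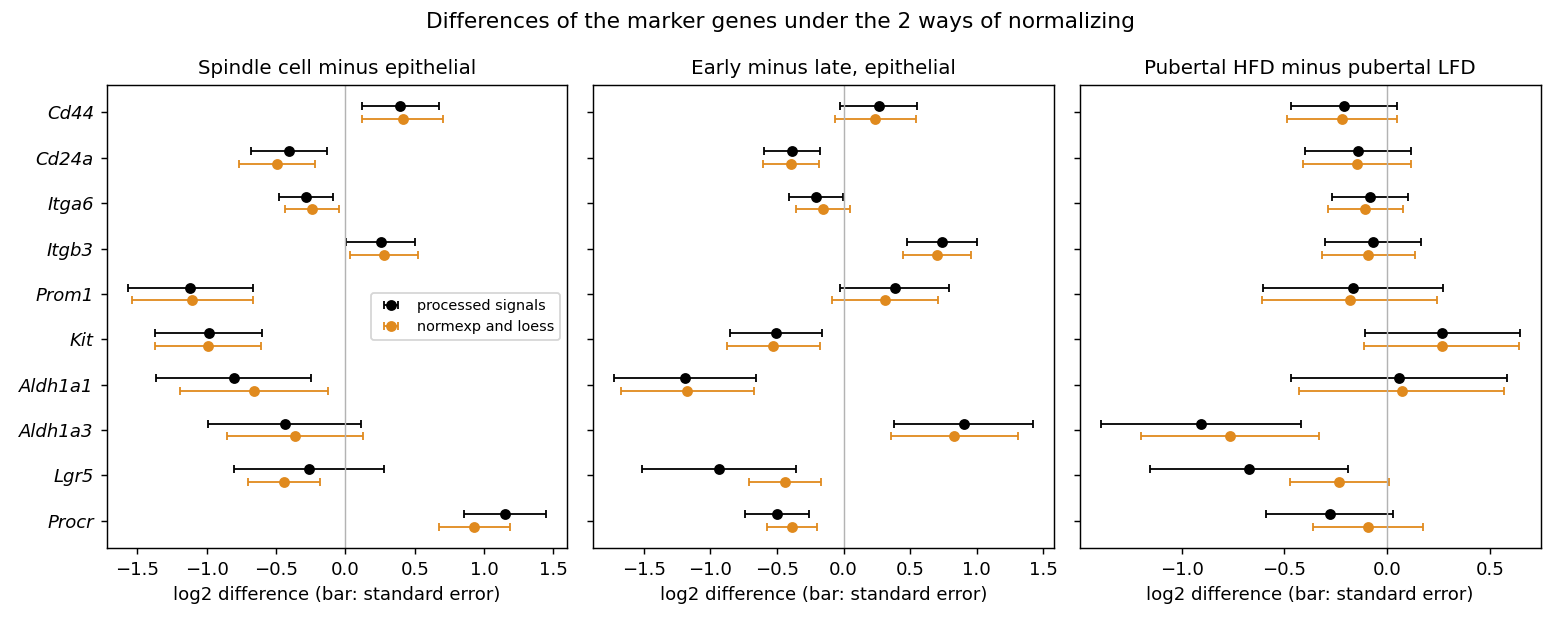
Difference of each of the 10 genes, in log2 units with its SE as the bar, between the histologies (left), early and late epithelial tumors (middle) and pubertal high and low fat diet (right). Black points are from the processed signals used in the text and orange points from normexp background correction with loess. Procr between the histologies, at 1.15 and 0.93, is the one difference that passed its threshold under both.

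For Cd44 the answer depended on the probe. The constant-region probe, shown above and used for the gene, had a lowest, median and highest value of 0.13, 2.04 and 3.21 in epithelial tumors and of 0.63, 2.25 and 3.37 in spindle cell tumors. Its mean was 1.86 ± 0.81 (SD, n = 29) against 2.26 ± 0.90 (SD, n = 12), a difference of 0.40 (SE 0.28, limma adjusted p = 0.328). Read by the probe downstream of it, Cd44 was higher in spindle cell tumors by 0.78 (SE 0.29), with a limma adjusted p of 0.0475 over 27307 probes. Read by the variable-region probes the sign turned, with differences of -0.29 for probe 1 (SE 0.40, limma adjusted p = 0.647) and -0.14 for probe 2 (SE 0.31, limma adjusted p = 0.795). Both of these differences were smaller than their SE. Whether Cd44 was called, and on which side of 0 its difference lay, thus varied with the probe.

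The contrast between the parts of the transcript was then taken within each tumor, as the mean of the variable-region values minus the constant-region value. It averaged 0.47 ± 0.76 (SD, n = 29) in epithelial tumors and -0.15 ± 0.84 (SD, n = 12) in spindle cell tumors. The difference of the means was -0.61, and -0.47 without M32L, M76R and M86R, while the medians lay closer together, at 0.48 and 0.36. The highest epithelial values were 2.67 in 60L and 2.24 in 42L4B, which were scanned apart from the other epithelial tumors. No other epithelial tumor was above 1.19. Both tumors were kept in these differences and raise the epithelial mean, and the difference without them was not computed. Variable-region probe 1 stood well above background in 10 of the 12 spindle cell tumors. The constant-region value minus the downstream value, between probes that both lie outside the variable stretch, differed by -0.38. These contrasts were chosen after the values of the probes had been seen, so they are given as descriptions and without p-values. Such a difference shows unequal change of the probes and not which of them changed.

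**Figure D3:**
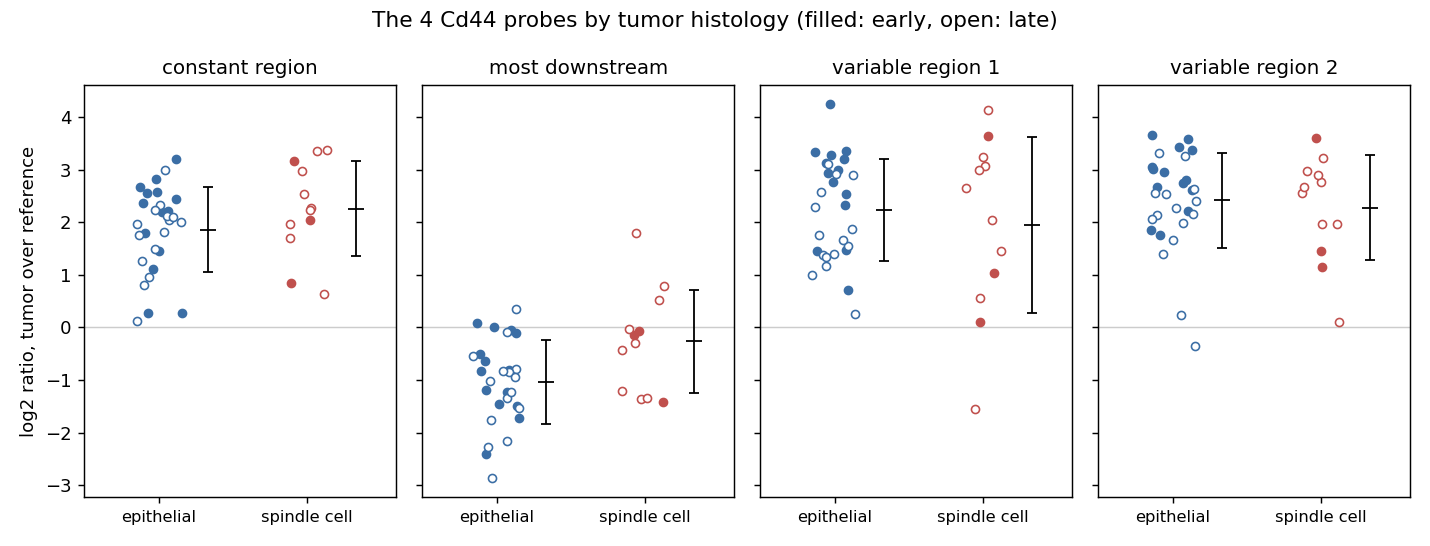
Cd44 in every tumor by each of its 4 probes, as log2 of tumor over reference signal, in epithelial (n = 29) and spindle cell (n = 12) tumors, with the mean and SD beside the points. The spindle cell mean was above the epithelial one for the downstream probe (by 0.78) and the constant-region probe (by 0.40) and below it for both variable-region probes.

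Of the other members, Prom1, Itgb3, Itga6 and Lgr5 had a second probe, which the files assign to another transcript than the first for each but Itgb3. The second Prom1 probe gave -1.08 between the histologies, second probes gave 0.32 for Itgb3 and -0.27 for Itga6, and none of these was called. The second Lgr5 probe was above background in 1 epithelial tumor and in no spindle cell tumor, and its values were not used. Lgr5 itself had a difference of -0.26 (limma adjusted p = 0.772).

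Genes that work with these markers were counted in the same comparison, where 7.92% of all genes were called higher and 12.2% lower. Of 17 further stem and progenitor genes tested, none was higher and 3 were lower in spindle cell tumors by limma: Elf5, a transcription factor of the luminal alveolar lineage (-1.63, adjusted p = 0.00937), Id4, a regulator of basal progenitors (-2.23, adjusted p = 0.0170), and Lgr6, an R-spondin receptor related to Lgr5 (-1.45, adjusted p = 0.0447). Of 26 ligands, partners and pathway genes tested, 1 was higher and 3 were lower by limma, which was not above the background either way. The higher gene was Thbd, thrombomodulin, which acts with the product of Procr in activating protein C (1.54, adjusted p = 0.00245). Proc, the gene of protein C, was lower (-1.02, limma adjusted p = 0.00159), while F2r and F3, also on this list, were not called. Rnf43, a ligase that removes Wnt receptors and is held back by R-spondins bound to LGR proteins, was also lower (-1.36, adjusted p = 0.00512), as was Vtn, a ligand of integrin β3 (-0.82). The gene of the KIT ligand, Kitl, differed by -0.43 (limma adjusted p = 0.411). Aldh1a7, a close paralog of Aldh1a1, differed by -0.05 (limma adjusted p = 0.962), and whether RNA of one reached the probe of the other was not tested. Axin2 of the first list and Rspo2 and Has3 of the second did not pass the filter on dim probes. No gene of either list was called in any comparison of latency or diet.

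In whole tumors, fewer cells of a type and less RNA per cell cannot be told apart, and markers of other cell types moved with the histology. In spindle cell tumors 3 of 6 mesenchymal genes were called higher by limma, among them Snai1 (1.33) and Vim (1.19), as were 3 of 6 fibroblast genes, among them Col1a2 (1.22) and Col1a1 (1.22), and 2 of 5 platelet genes, Ppbp (2.04, above background in 9 of 29 epithelial and 7 of 12 spindle cell tumors) and Gp1bb (0.86). None of 8 luminal and none of 4 basal epithelial genes was called in either direction. The mean of the luminal list, which holds keratins and claudins, ran from -0.07 to 4.66 in epithelial tumors (median 1.87) and from -1.79 to 2.77 in spindle cell tumors (median 1.41), and all 8 genes stood above background in most tumors of both. No gene of the macrophage, lymphocyte, adipocyte or skeletal muscle lists was called. Of 4 mast cell genes, a cell type that itself carries KIT, 1 was called higher (Tpsb2, 0.70), and the mean of that list lay between -6.31 and -2.91 in epithelial tumors and between -5.19 and -0.57 in spindle cell ones. The part of mast cells in the Kit values was not tested. Of 6 endothelial genes, 3 were called higher, among them Tie1 (1.13) and Pecam1 (0.87). The mean level of the endothelial list ran from -1.95 to 0.45 in epithelial tumors (median -0.84) and from -0.94 to 0.99 in spindle cell tumors (median -0.37), and no endothelial gene was at or near background in most tumors of either histology. Within the 12 spindle cell tumors Procr was positively related to this mean (r = 0.62, permutation p = 0.0304, adjusted over 2 histologies 0.0607; rho = 0.73, adjusted permutation p = 0.0164), and r was 0.81 without the 2 tumors farthest from the median. In the 29 epithelial tumors r was -0.21 (permutation p = 0.270), and 0.15 without the 2 tumors farthest from the median. There rho had the other sign, at 0.27 (permutation p = 0.147). How much of the Procr difference lay in vessels was not tested.

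Early and late tumors were compared in the 29 epithelial tumors. No member passed the threshold of 0.10, where 0.143% of all genes did. At an unadjusted p under 0.05, 3 of the 10 members stood out, and 13.2% of all genes did so. Itgb3 had a lowest, median and highest value of -1.88, 0.77 and 1.32 in early tumors and of -1.15, -0.45 and 0.54 in late tumors, with means of 0.38 ± 0.90 (SD, n = 12) and -0.36 ± 0.49 (SD, n = 15). The difference was 0.74 (SE 0.26, limma adjusted p = 0.235), and with 1 tumor kept per mouse number it was 0.99 with a limma adjusted p of 0.0732. Over the 13 other settings it ran from 0.40 to 1.29, and it was called in that 1 alone. The deposited matrix and the scanner files disagree on tumors 40R4A, 57R and 65R. With the matrix labels for these tumors the Itgb3 difference was 0.46 (limma adjusted p = 0.552). Aldh1a1 ran the other way, at -4.45, -2.74 and 1.44 in early and -3.29, -1.32 and 1.61 in late tumors, a difference of -1.19 (SE 0.53, limma adjusted p = 0.340). Over the 13 other settings the Aldh1a1 difference ran from -2.22 to -0.78, the latter with the matrix labels (limma adjusted p = 0.620). Procr differed by -0.50 (SE 0.24, limma adjusted p = 0.365), and without tumors 42L4B and 60L, which were scanned apart from the other epithelial tumors, by -0.24.

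On 3 slides, 12 early and late epithelial tumors lay side by side, which allowed the difference to be read within a slide. On the first of them the early tumors were all LFD-HFD and the late ones all HFD, so latency and diet cannot be told apart there. The second held 1 early and 3 late tumors. The last held 40R4A, 57R and 65R. In the deposited matrix their columns match one another's scanner files best, so the latency labels on this slide are in doubt. Itgb3 was higher in the early tumors on each slide, by 1.6, 0.74 and 1.40, and Aldh1a1 was lower on each, by -4.00, -0.67 and -1.60. Procr (-0.41, -0.54 and -0.67), Kit (-0.59, -0.28 and -0.33) and Cd44 (0.15, 1.27 and 0.89) also had 1 sign on the 3 slides. The signs of Cd24a, Prom1, Aldh1a3, Lgr5 and Itga6 differed between the slides. How many of all genes had 1 sign on the 3 slides was not counted. With slide as a fixed block the difference was 1.29 for Itgb3 and -2.22 for Aldh1a1 (limma adjusted p = 0.453 for both), and 0.72 for Cd44 (limma adjusted p = 0.652). The Aldh1a1 values of the LFD regimen are given as a description. This regimen was picked after its values were seen, and its early and late tumors lay on 1 slide each, so latency and slide cannot be told apart in it. The 4 early tumors were at -2.19, -3.00, -3.73 and -4.45 and the 4 late tumors at -0.39, -0.50, -1.32 and -1.33. The other 7 members differed less against their SE. Aldh1a3 was 0.90 higher in early tumors (SE 0.52), opposite in sign to Aldh1a1, and Lgr5 was at -0.93 (SE 0.58). Kit (-0.51), Cd24a (-0.39), Prom1 (0.38), Cd44 (0.26) and Itga6 (-0.21) lay closer to 0, with limma adjusted p from 0.437 to 0.720.

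No member was called between the 3 early and 9 late spindle cell tumors, nor had one an unadjusted p under 0.05 (2.03% of all genes had). The differences ran from -1.76 for Aldh1a3 (SE 1.15) to 1.17 for Lgr5 (SE 0.89). Their signs depended on single tumors for Cd44, Cd24a, Kit, Procr and Itga6, as the 3 early tumors were unlike one another. Early tumor M86R had Kit at 3.98 and Procr at 0.01, whereas early tumor M84R had Kit at -0.60 and Procr at 2.64.

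No member passed the test between diets in either histology. Between tumors of mice on the high fat diet in puberty (HFD and HFD-LFD, n = 21) and those on the low fat diet in puberty (LFD and LFD-HFD, n = 20), 0 members were called, with limma adjusted p from 0.755 to 0.996, and 0.00956% of all genes were called. No member had an unadjusted p under 0.05, which 6.95% of all genes had. The widest difference among the 10 was that of Aldh1a3, at 0.26 ± 1.75 (SD, n = 21) after pubertal high fat and 1.17 ± 1.47 (SD, n = 20) after pubertal low fat, or -0.91 (SE 0.49). Lgr5 differed by -0.67 (SE 0.48), and the other 8 members by -0.28 to 0.27.

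Across the 4 regimens within epithelial tumors, 0 members were called (limma adjusted p from 0.53 to 0.97), against 0.473% of all genes. None was called in any pair of regimens, although 1.25% of all genes were between HFD-LFD and LFD, 0.0287% between HFD-LFD and HFD and 0.263% between LFD-HFD and HFD. The HFD-LFD and LFD tumors shared no slide, and the number of genes called across the regimens was 0 in place of 99 once slide entered as a random block. Aldh1a1 had the widest distances, with means of -1.19 ± 2.11 (SD, n = 6) in HFD, -1.26 ± 1.54 (SD, n = 7) in HFD-LFD, -2.11 ± 1.49 (SD, n = 8) in LFD and -2.36 ± 0.83 (SD, n = 6) in LFD-HFD tumors. HFD was thus above LFD by 0.92 (SE 0.79) and LFD-HFD below HFD (-1.17, SE 0.85), both within the spread of the tumors. Itga6 was highest in HFD-LFD tumors, at 1.79 ± 0.45 (SD, n = 6) against 1.17 ± 0.34 (SD, n = 7) in HFD (limma adjusted p = 0.344). Cd44 averaged 2.32 ± 0.87 (SD, n = 6) in LFD-HFD and 1.44 ± 0.87 (SD, n = 7) in HFD-LFD tumors (limma adjusted p = 0.966).

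Among spindle cell tumors, the regimens lay farthest apart in Aldh1a3. The 3 LFD tumors were at 1.85, 2.63 and 3.18. The 3 HFD-LFD tumors were at -3.58, -0.92 and -0.52, and this gene and pair of regimens were picked after the values were seen. The 3 LFD-HFD tumors were at -0.63, 0.91 and 1.43, and the HFD tumors were at -2.21, 1.12 and 1.46. No gene was called across the regimens in spindle cell tumors (0 of 20908 by limma, 782 at an unadjusted p under 0.05), and Aldh1a3 had an unadjusted limma p of 0.0159 and an adjusted p of 0.977. With 3 tumors in a regimen, the number of arrays limits the precision of this comparison.

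Whether the pubertal diet difference itself differed between the histologies was tested as an interaction. No member passed, where 0.445% of all genes did. Aldh1a1 had the lowest adjusted p of the 10, with means of -2.22 ± 1.22 (SD, n = 14) after pubertal low fat and -1.23 ± 1.74 (SD, n = 13) after pubertal high fat in epithelial tumors, and of -1.55 ± 2.21 (SD, n = 6) and -3.55 ± 0.88 (SD, n = 6) in spindle cell tumors. The Aldh1a1 differences thus pointed in opposite directions, and the interaction was -2.98 (SE 1.03, limma adjusted p = 0.243). It passed with another background correction and normalization (-3.22, limma adjusted p = 0.0359) and without tumors 42L4B, 60L and M86R (-3.37, limma adjusted p = 0.0989). In these settings 2364 and 620 of 20911 genes passed, against 93 in the main fit. Without M32L, M76R and M86R the Aldh1a1 interaction was -1.90 with a limma adjusted p of 0.817. Tumor M76R alone, at 2.36, held more Aldh1a1 than the other 11 spindle cell tumors, of which none was above -0.27. The Cd24a interaction was -1.27 (SE 0.52, limma adjusted p = 0.310), and the other 8 ran from -2.01 to 0.90.

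**Figure D4:**
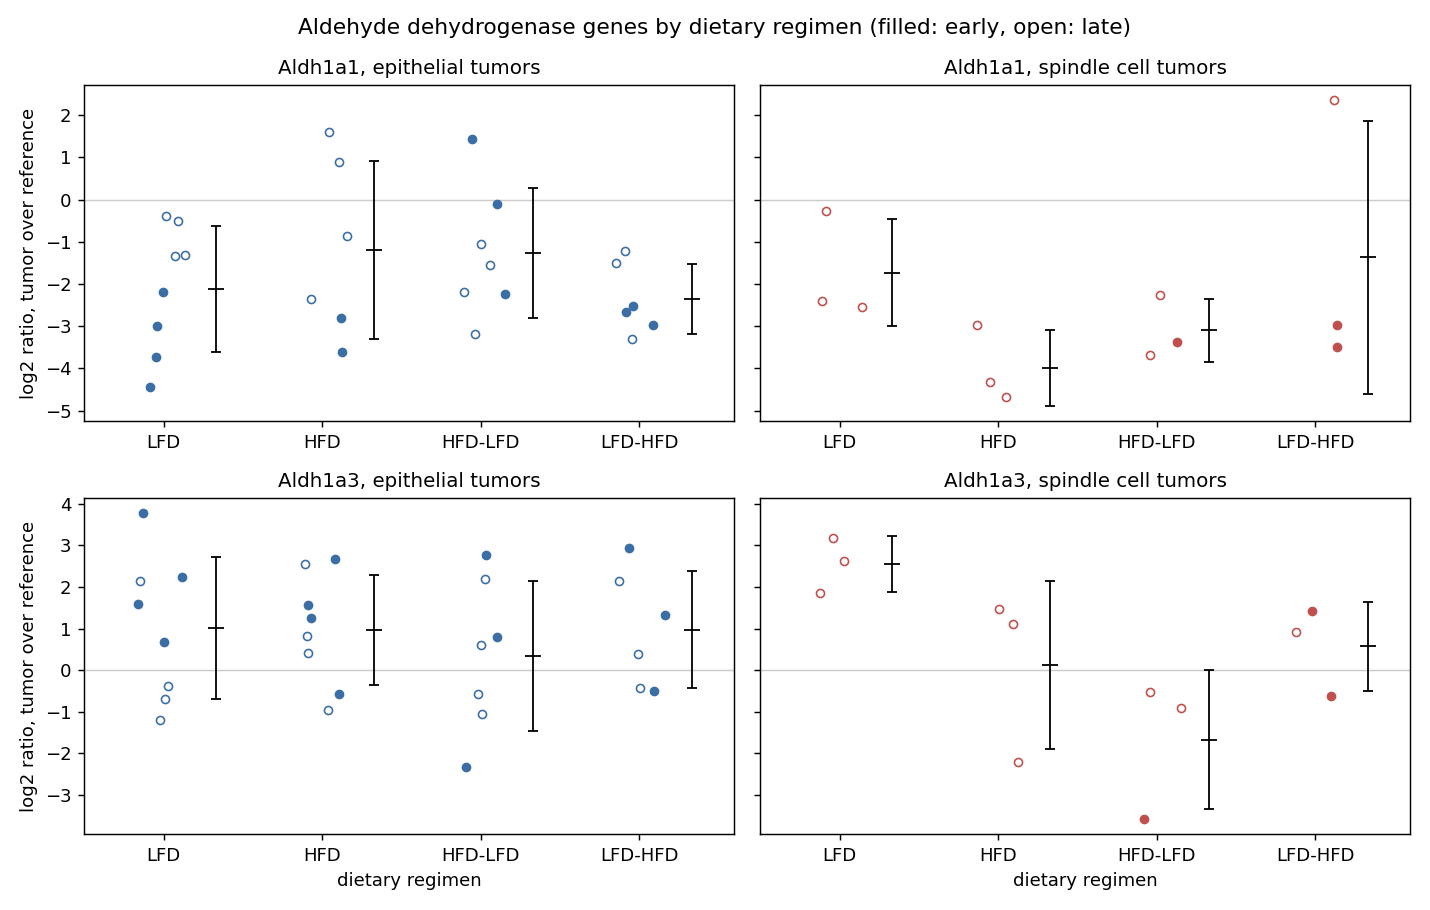
Aldh1a1 and Aldh1a3 in every tumor by histology and dietary regimen, as log2 of tumor over reference signal. Filled points are early and open points late tumors, and the bar beside them is the mean with its SD. Among the spindle cell tumors, M76R stands alone at 2.36 for Aldh1a1.

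The members were next set against each other over the epithelial tumors, in 45 pairs with permutation tests and adjustment over the 45. Aldh1a1 and Itgb3 varied in opposite directions (r = -0.70, permutation p = 6e-05, adjusted 0.0027; rho = -0.68, adjusted 0.00855; n = 27). The relation was -0.59 without the 2 tumors farthest from the median and -0.83 after the mean of each slide was removed. Kit and Lgr5 varied together (r = 0.62, adjusted permutation p = 0.00945; rho = 0.62, adjusted 0.0155; n = 28), with 0.52 without the farthest 2 tumors and 0.61 after slide means were removed. The Kit and Lgr5 pair did not pass with normexp and loess (r = 0.56, adjusted permutation p = 0.0804; rho = 0.42, adjusted 0.141), and r was then 0.32 without the farthest 2 tumors. The Lgr5 probe was well above background in 21 of the 29 tumors. These were the 2 pairs with an adjusted p under 0.05 for r, and Kit and Aldh1a1 passed for rho alone (rho = 0.59, adjusted permutation p = 0.0180; r = 0.45, adjusted 0.114). Of the 45 pairs, 11 had an unadjusted permutation p under 0.05 for r, and r ran from -0.70 to 0.62 with a median of 0.03.

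In the 12 spindle cell tumors r was -0.06 for Aldh1a1 with Itgb3 (permutation p = 0.862) and -0.02 for Kit with Lgr5. The difference between the histologies was not tested. Among spindle cell tumors, Kit and Procr were opposed (r = -0.83, permutation p = 0.00078, adjusted over 45 pairs 0.0351; rho = -0.83, adjusted 0.0684), with r = -0.83 without the 2 farthest tumors. The 5 tumors lowest in Procr, at 0.01 or less, were the 5 highest in Kit, at 1.5 or more. In the other 7, Procr was at 0.85 or more and Kit at 1.16 or less. In M84R, for example, Procr was at 2.64 and Kit at -0.60, and in M128L Procr was at -1.11 and Kit at 3.68. Prom1 and Procr had r = -0.73 without passing (adjusted permutation p = 0.120). In epithelial tumors r was -0.23 for Kit with Procr (permutation p = 0.236).

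Read tumor by tumor, the spindle cell tumors also differed in which markers stood high. M63L and M33R had the highest Cd44 values, at 3.37 and 3.36, with Procr at 2.22 and 2.14, and their Prom1 was at -1.83 and -2.50. M54R and M18L had the highest Prom1, at 2.59 and 2.51, with Procr at -0.20 and -0.64. M129L held the lowest value of the 12 in Aldh1a3 (-3.58), Cd24a (-3.24) and Itgb3 (-0.59) and, with a level of -0.00, in Itga6. These are values of single tumors, each measured on 1 array.

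**Figure D5:**
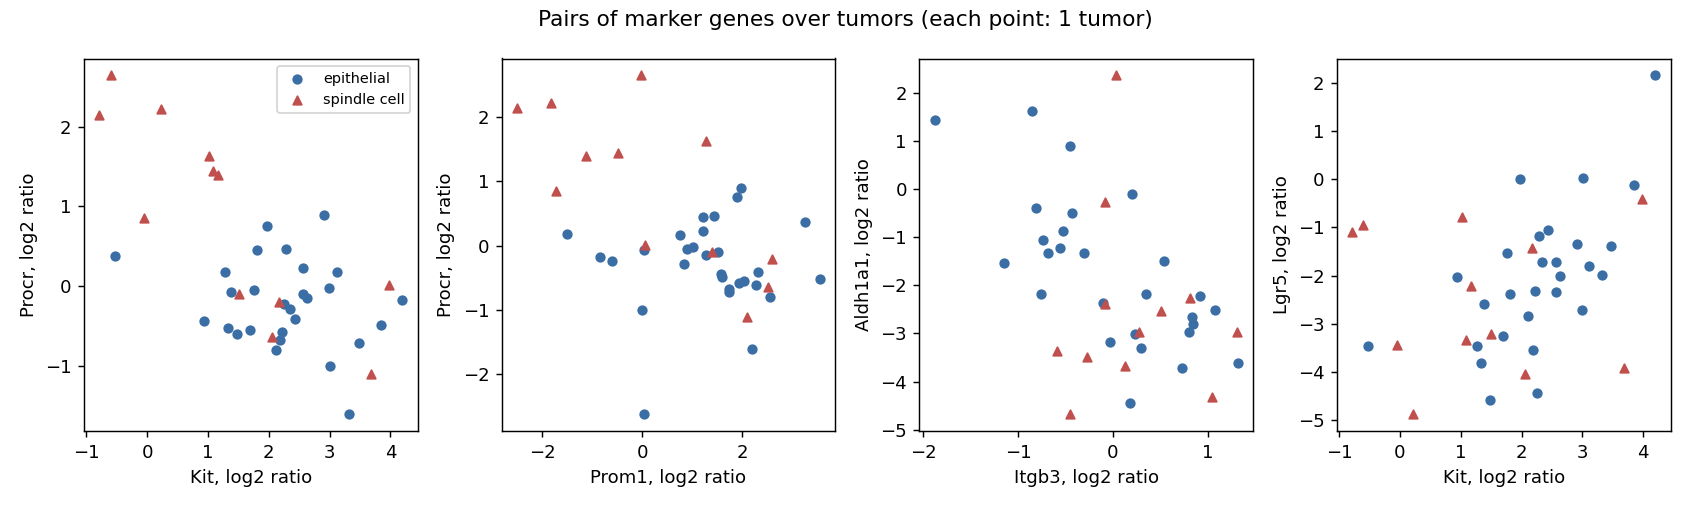
From left to right, Procr against Kit, Procr against Prom1, Aldh1a1 against Itgb3 and Lgr5 against Kit, each point 1 tumor, in log2 of tumor over reference signal (blue circles epithelial, red triangles spindle cell). In epithelial tumors Aldh1a1 was lower where Itgb3 was higher (r = -0.70) and Lgr5 was higher with Kit (r = 0.62), and in spindle cell tumors Procr was lower where Kit was higher (r = -0.83).

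For each member, the gene most like it over the epithelial tumors was also found, as the highest Pearson r among 10496 or 10497 genes that had a value in all 29 tumors and stood well above background in at least 80% of them. These values are given with no test. By Pearson r alone, Procr had the closest partner, Efemp1, a gene of the extracellular matrix (r = 0.88). That r was 0.69 without the 2 tumors farthest from the median of Procr, and rho was 0.71. Cd44 and its partner stood higher by both of these measures, at 0.83 and 0.83. Cd44 was closest to Cd300lf, a receptor of myeloid cells (r = 0.82), Itgb3 to Fbxo8 (r = 0.79), Kit to Vmac (r = 0.78), Cd24a to Nfia (r = 0.77), Prom1 to Fam89a (r = 0.76) and Lgr5 to Adamtsl1 (r = 0.73). Aldh1a1 was closest to LOC100504857 (r = 0.81), Aldh1a3 to Rnf125 (r = 0.67) and Itga6 to D030036P13Rik (r = 0.65).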

How the data were processed

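RNA of 41 tumors (Cy5) was hybridised with reference RNA (Cy3) to Agilent 2-colour arrays of 43020 gene spots. Per the file headers, the deposited intensities were background-subtracted and dye-normalized by the authors with Agilent Feature Extraction (11.0.1.1 for epithelial, 10.5.1.1 for spindle cell tumors), where the labels give version 8.5.1.1, and the deposited log10 ratios are red over green. The authors' deposited log2 matrix was used as an alternative only, after lowess normalization and imputation from 10 nearest neighbours as the methods state. In it the columns of epithelial tumors 40R4A, 57R and 65R each matched another of these 3 scanner files best (r from 0.979 to 0.985).

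Here, log2 of tumor over reference processed intensity was taken, control spots were removed, outlier spots set missing (1.19% of values, and up to 22.0% of spots, in tumor 60L) and spots of a probe averaged. Missing values left Cd24a, Aldh1a1 and Itgb3 without 42L4B and 60L, Kit without 60L, and Itga6 without 60L and 108R. Probes with both intensities over 10 on at least 80% of arrays were kept (27307 of 39429), with the brightest probe per gene. Of the 20913 genes, 15144 symbols were in the GRCm38.p6 gene table. Probe coordinates are those of the files (mm9).

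Groups came from the labels, where the p53 variable morphology was read as epithelial and p53 spindle-like as spindle cell. Tests used limma 3.58.1 in R 4.3.3 with Benjamini-Hochberg adjustment over all genes, at 0.05 for histology and 0.10 elsewhere, in place of SAM, which was not run. Relations used 100000 permutations. The code was tested on simulated data. The members, lists, partner rule (named: all members, up to 2 called genes each way per list, Aldh1a7 and the closest gene) and tumors left out were chosen with earlier results of these data known. The alternatives were background correction and scaling, the deposited matrix, filters, outlier spots, probe choice, slides as blocks and tumors left out.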

Additional observations from a re-analysis of the deposited data

Results flagged for a closer look

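Within groups of 4 to 10 tumors of 1 regimen, with or without latency, 84 sets of values of the 10 genes were searched for a tumor far from the rest. In 4 of them the lowest or highest tumor stood apart by more than Dixon's 95% limit, where chance gives about 1 set in 20. All 4 were groups of 4 epithelial tumors. Cd44 was at 0.127 in late HFD-LFD replicate 2, with the nearest other tumor at 1.75. Prom1 was at -1.51 in late HFD-LFD replicate 1, with the nearest at 1.21, and this array had the smallest share of probes well above background of all epithelial arrays (52.4%). Lgr5 was at -4.59 in early LFD tumor 31R, with the nearest at -2.38. Procr was at 0.451 in early LFD tumor 17R, with the nearest at -0.445. The part of signal or array quality in these values was not tested. For none of the 10 genes did the pubertal diet difference pass the test of a difference between the histologies.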

How the results depend on the processing

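Over the 7 comparisons, 1133 values of the 10 genes were recomputed under other settings, of which 1097 kept their side of the threshold and their direction, 13 gained a call, 1 lost it and 22 changed direction. The tests across the 4 regimens have no direction, and their values are counted by side of the threshold alone. The number of members called between histologies was 1, and it was 2 without 42L4B, 60L and M86R, 4 without M32L, M76R and M86R (4865 and 4629 of all genes), and 1 to 3 with 1 spindle cell tumor left out. Between early and late epithelial tumors it was 0, and 1 with 1 tumor per mouse number. For the interaction it was 0, and 1 with normexp and loess, where 2364 of 20911 genes were called, or without 42L4B, 60L and M86R, where 620 were, against 93. Of the 2 epithelial pairs of genes, 1 passed with normexp and loess, Aldh1a1 with Itgb3.

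Directions changed in these cases, beside the Cd44 probes. Between histologies, Aldh1a3 was 0.44 in late tumors and Cd44 was -0.29 and -0.14 by the variable-region probes. For pubertal diet, Aldh1a1 was -0.17 with outlier spots kept, -0.21 with 1 tumor per mouse number, -0.020 without 42L4B, 60L and M86R and -0.15 with slide as a fixed block, which gave 0.38 for Cd44. In epithelial tumors alone Cd24a was 0.25 and Itga6 0.13, and Itgb3 was 0.025 as a mean over probes. Between early and late spindle cell tumors, Itga6 was 0.25 as a mean over probes, Cd44 0.27 without 42L4B, 60L and M86R, and Aldh1a1 0.089 without M32L, M76R and M86R. With 1 spindle cell tumor left out, Cd44 ran there from -0.89 to 0.27, Cd24a from -1.24 to 0.96, Kit from -1.67 to 0.62, Procr from -0.32 to 0.99 and Itga6 from -0.56 to 0.13. The Kit interaction was -0.00401 with normexp and loess, -0.052 with ratios centred, -0.14 in the deposited matrix and -0.045 with a random block for the slide. The causes were not tested.

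Counts over all genes moved more. They were 4218 between histologies (2348 in late tumors, 2550 with slide as a random block, 7892 with no filter), 30 between early and late epithelial tumors (0 to 59), 2 for pubertal diet (0 to 22), 99 across regimens in epithelial tumors (0 to 237), 0 in spindle cell tumors (12 without M84R) and 93 for the interaction (16 to 2364). No paired analysis was possible because mouse numbers in the labels recur at most once between any of the groups. Few spindle cell tumors, dim Lgr5 signal and the scan sessions limit these results.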
